A study of Glycine max with 12 samples.

Results

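WRKY proteins are plant transcription factors named for a conserved stretch of amino acids in their DNA-binding domain. They bind a short promoter element called the W box, and many act downstream of MAP kinases in the transcriptional control of immunity, some as activators and some as repressors of defense genes. Their own genes are often induced by pathogens, wounding and feeding insects. The family was taken here as the soybean probe sets of the Affymetrix Soybean Genome Array whose annotated symbol starts with WRKY and names a single gene. Each probe set combines several short probes that target the same transcript. This rule gave 103 of 37593 soybean probe sets, which report on 52 WRKY genes of 6029 genes with a symbol of their own. For each gene the probe set with the highest mean over the 12 arrays was used, which was the sole probe set for 26 genes and a choice among several for the other 26. Another 6 probe sets carry a WRKY symbol together with that of a second gene and were kept apart. The symbols WRKY13, WRKY49 and WRKY61 occur on these alone. Soybean WRKY numbers are a series of their own, so soybean WRKY41, for example, is not the counterpart of Arabidopsis WRKY41.

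The arrays measured RNA of the third trifoliate leaves of Glycine max in 4 groups of 3 arrays each. Infested R plants were aphid-resistant LD05-16060, a line with the Rag1 gene, that had carried soybean aphids (Aphis glycines) for 21 days after 30 aphids were placed on each plant, and uninfested R plants were the same line without aphids. Infested S plants were aphid-susceptible SD01-76R treated in the same way, and uninfested S plants were SD01-76R without aphids. All seeds received rhizobium powder, all plants grew in 1 growth chamber under nets, and each array holds leaves pooled from 2 plants. Each type of plant is a single line, so that Rag1 and the other genetic differences between the lines cannot be told apart. Infested plants stood on the left side of the chamber and uninfested plants on the right, so that aphids and position cannot be told apart either. Values are log2 signals after quantile normalization, on which a difference of 1 is a fold of 2. The leaf identity was checked on 6 photosynthesis genes (4 rubisco activases, CAB3 and PSAD), whose mean signals ran from 8.17 to 13.59 and none of which was at the level of the array's control probe sets, between 5.39 and 5.42. Of 16 seed protein genes, 12 were at that level and the highest mean was 10.36, and 4 nodule genes had means from 5.41 to 6.19. The 3 root cell wall genes (PRP1 to PRP3) had means from 4.82 to 13.21, with 1 at the control level, and so did not set these leaves apart from root.

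Most of the family was above the control level. WRKY2, WRKY15, WRKY29 and WRKY64 were not, in any group, with signals from 4.71 to 5.64 over the 12 arrays and no difference between groups above 0.28 in size. WRKY29 had the lowest mean of the family, with 5.18, 4.79 and 4.71 in infested S plants, against 4.76, 4.92 and 4.98 in uninfested S plants. Its R plants had 5.01, 4.89 and 4.77 with aphids, against 4.71, 4.79 and 4.92 without, so that all groups overlapped. WRKY25 was at the control level in uninfested R plants and just above it in the other groups.

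The first comparison asks what aphids left after 21 days in leaves of the susceptible line. A large part of the WRKY family was higher in infested than in uninfested S plants. Of the 52 genes, 15 rose (28.8%) and 0 fell at a limma adjusted p under 0.05, against 2.51% of all soybean probe sets that rose and 0.902% that fell. Among the 6029 annotated genes, each taken at its brightest probe set, 3.02% rose. The rises ran from 1.23 for WRKY10 to 3.88 for WRKY46 on the log2 scale. The median difference over the family was 0.90, against -0.04 over all soybean probe sets, and 41 of 52 genes (78.8%) had a positive difference, against 43.1% of all probe sets. Before adjustment, 27 genes were above and 0 below at p under 0.05, against 7.73% and 8.88% of all probe sets. At the cutoffs of the Methods (unadjusted p, q and a fold of at least 2 together), WRKY5, WRKY17 and WRKY58 were called, 5.77% of the family against 0.92% of all probe sets. The study called more WRKY genes as induced at the same cutoffs on its own normalized values. Among them were the genes paired here with WRKY12, WRKY21, WRKY30, WRKY43, WRKY46 and WRKY63. The reason for the smaller number here was not tested. With arrays of equal replicate number treated as blocks, 8 genes met these cutoffs (15.4%), against 1.7% of all probe sets. In 26 genes every infested S array lay above every uninfested S array, which held for 8.33% of all probe sets.

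Some of the probe sets are paired by the study with a soybean gene ID and a closest Arabidopsis protein. These pairings come from its list of transcription factors called between infested and uninfested S plants on these same arrays. A gene that was not called there could not carry one. WRKY46 (Glyma.08g021900), WRKY43 (Glyma.19g254800) and WRKY12 (Glyma.01g224800) match Arabidopsis WRKY41, a factor whose overproduction raises resistance to a bacterial pathogen in Arabidopsis. WRKY30 (Glyma.17g222300) and WRKY63 (Glyma.14g102900) match Arabidopsis WRKY40, a repressor of basal defense in Arabidopsis. WRKY5 (Glyma.01g128100) matches Arabidopsis WRKY33, which is phosphorylated by MAP kinases in Arabidopsis and switches on genes of phytoalexin synthesis. WRKY58 (Glyma.04g223300) matches Arabidopsis WRKY70, a component of salicylic acid signaling in Arabidopsis, and WRKY21 (Glyma.06g147100) matches Arabidopsis WRKY51, which represses jasmonic acid signaling in Arabidopsis. The roles of the soybean genes themselves were not measured here.

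The 3 genes paired here with a match to Arabidopsis WRKY41 all rose, which follows from their place on the study's list of called genes. That list also holds a match of Arabidopsis WRKY41 that is paired with no probe set used here. WRKY46 had signals of 11.49, 10.88 and 10.22 in infested S plants, against 7.0, 7.87 and 6.08 in uninfested S plants. The lowest infested array was above the highest uninfested array, and the difference was 3.88 (14.7-fold, SE 0.72, adjusted p = 0.012). WRKY43 had 12.20, 12.11 and 11.88 in infested S plants, against 9.90, 9.99 and 8.39 in uninfested S plants. Its infested arrays lay close together while uninfested array 3 was the lowest, and the difference was 2.63 (6.21-fold, SE 0.49, adjusted p = 0.012). WRKY12 had 12.09, 10.81 and 10.91 in infested S plants, against 9.26, 9.25 and 7.57 in uninfested S plants. The groups did not overlap, infested array 1 was the highest and uninfested array 3 again the lowest, and the difference was 2.58 (5.97-fold, SE 0.55, adjusted p = 0.024).

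The 2 genes whose used probe sets match Arabidopsis WRKY40 were on the same list, and both had 1 uninfested array far above the other two. WRKY30 had signals of 10.89, 11.15 and 10.49 in infested S plants, against 9.44, 6.43 and 6.80 in uninfested S plants. This was array 1, which still lay under all infested arrays, and the difference was 3.29 (9.78-fold, SE 0.67, adjusted p = 0.020). WRKY63 had 10.68, 10.38 and 10.42 in infested S plants, against 9.33, 6.27 and 6.56 in uninfested S plants. The same uninfested array was the high one, and the difference was 3.11 (8.60-fold, SE 0.64, adjusted p = 0.021). Without uninfested S array 1 the differences were 4.23 for WRKY30 and 4.08 for WRKY63. In the RefSeq annotation of the assembly Glycine_max_v4.0 the genes WRKY30 and WRKY63 are neighbors with 2 protein-coding genes between them. The WRKY63 probe set used here is, however, paired by the study with a gene of another chromosome (Glyma.14g102900), and the second WRKY63 probe set with Glyma.17g222500. The study matches Glyma.17g222500 to Arabidopsis WRKY40 as well. That second probe set was at the control level in uninfested S plants (mean 5.02), against which its mean of 7.13 in infested S plants was higher (adjusted p = 0.0026), and no fold is given for it.

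The 3 rises with the smallest p belonged to WRKY17, WRKY58 and WRKY5. WRKY17, which no Arabidopsis match was given for, had signals of 10.71, 9.30 and 9.60 in infested S plants, against 7.97, 6.76 and 6.50 in uninfested S plants. Array 1 was the highest in each group, without overlap, and the difference was 2.79 (6.94-fold, SE 0.39, adjusted p = 0.0024). WRKY58, the match of Arabidopsis WRKY70, had the highest mean of the family over the 12 arrays, with 12.55, 12.20 and 12.26 in infested S plants, against 11.21, 10.05 and 9.94 in uninfested S plants. The infested arrays agreed closely and uninfested array 1 was the high one of its group, and the difference was 1.94 (3.84-fold, SE 0.29, adjusted p = 0.0034). WRKY5, the match of Arabidopsis WRKY33, had 9.53, 8.42 and 8.0 in infested S plants, against 6.01, 6.07 and 5.78 in uninfested S plants. The uninfested signals were close to the control level and to each other, and the difference was 2.69 (6.47-fold, SE 0.40, adjusted p = 0.0035).

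**Figure D1:**
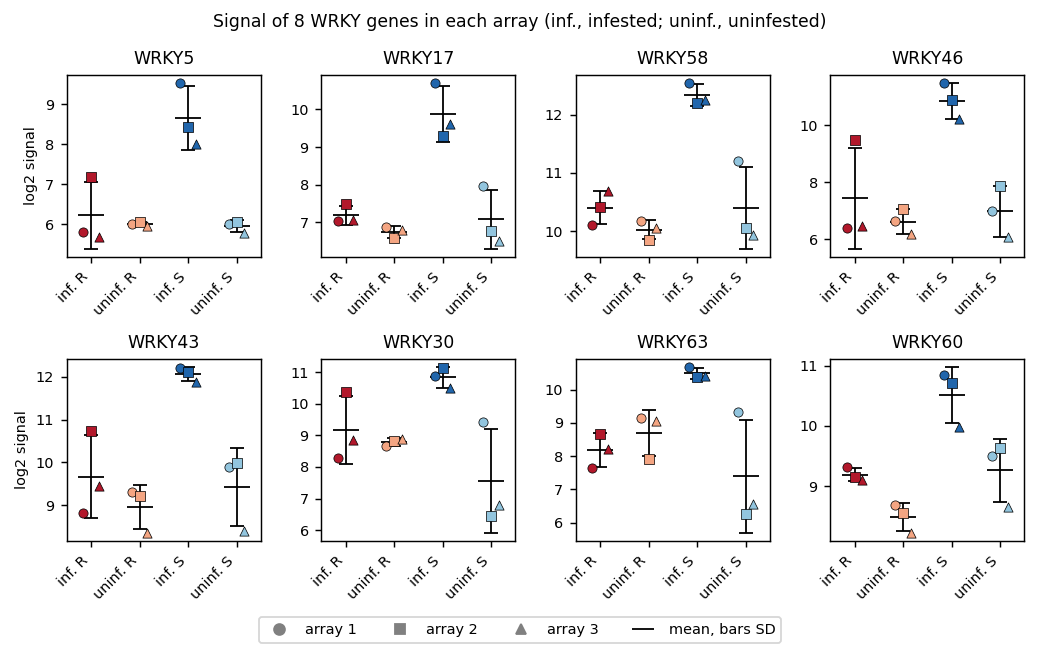
Log2 signal (vertical axis) of 8 WRKY genes in each array, with infested (inf.) and uninfested (uninf.) R and S plants on the horizontal axis. Symbols mark the replicate number, horizontal lines the group means and bars the SD (n = 3). In all 8 genes the 3 infested S arrays lie above the 3 uninfested S arrays, while infested R array 2 of WRKY46 (9.50) and uninfested S array 1 of WRKY30 (9.44) stand away from their groups.

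The other 7 genes that rose were WRKY4, which is described with its probe sets, and WRKY10, WRKY21, WRKY34, WRKY54, WRKY60 and WRKY62. WRKY21, the match of Arabidopsis WRKY51, had signals of 9.29, 8.06 and 8.80 in infested S plants, against 7.81, 5.60 and 5.78 in uninfested S plants, a difference of 2.32 (SE 0.48, adjusted p = 0.021). WRKY34 had 9.10, 7.87 and 7.26 in infested S plants, against 6.01, 6.35 and 5.58 in uninfested S plants, a difference of 2.10 (SE 0.41, adjusted p = 0.016). In both genes the groups were separate, with infested array 1 the highest. WRKY62 had 8.41, 7.43 and 7.21 in infested S plants, against 6.65, 5.95 and 5.77 in uninfested S plants (difference 1.56, adjusted p = 0.023). WRKY54 had 10.05, 8.73 and 9.38 in infested S plants, against 8.21, 7.88 and 8.24 in uninfested S plants (difference 1.27, adjusted p = 0.023). Array 1 was again the highest of the infested arrays, and neither gene's groups overlapped. WRKY60 had 10.85, 10.71 and 9.98 in infested S plants, against 9.50, 9.63 and 8.66 in uninfested S plants (difference 1.25, adjusted p = 0.027). WRKY10 rose by 1.23 (adjusted p = 0.039), with infested arrays from 8.03 to 8.81 and uninfested arrays from 6.75 to 7.76.

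The remaining 37 genes fell into 2 sets. In 12 genes (WRKY6, WRKY19, WRKY23, WRKY33, WRKY36, WRKY37, WRKY39, WRKY47, WRKY51, WRKY53, WRKY55 and WRKY57) the difference was between 0.59 and 1.84, with an unadjusted p under 0.05 and adjusted p-values from 0.053 to 0.22. In 11 of these 12 the infested arrays lay above the uninfested ones, and 10 of them, all but WRKY51 and WRKY57, passed with blocks of equal replicate number. The other 25 genes had differences from -0.43 to 1.29 and adjusted p-values of 0.36 or more, and WRKY56 alone among them passed with these blocks (adjusted p = 0.042). At the low end was WRKY41, with 7.80, 8.60 and 8.75 in infested S plants, against 8.67, 8.78 and 8.98 in uninfested S plants. Its groups overlapped and the difference was -0.43 (SE 0.22, adjusted p = 0.36). At the high end were WRKY27 (1.15) and WRKY56 (1.29), whose arrays varied widely within each group. WRKY27 had 9.14, 10.29 and 8.59 in infested S plants, against 8.21, 9.54 and 6.81 in uninfested S plants, so that array 2 was the highest and array 3 the lowest in each group.

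**Figure D2:**
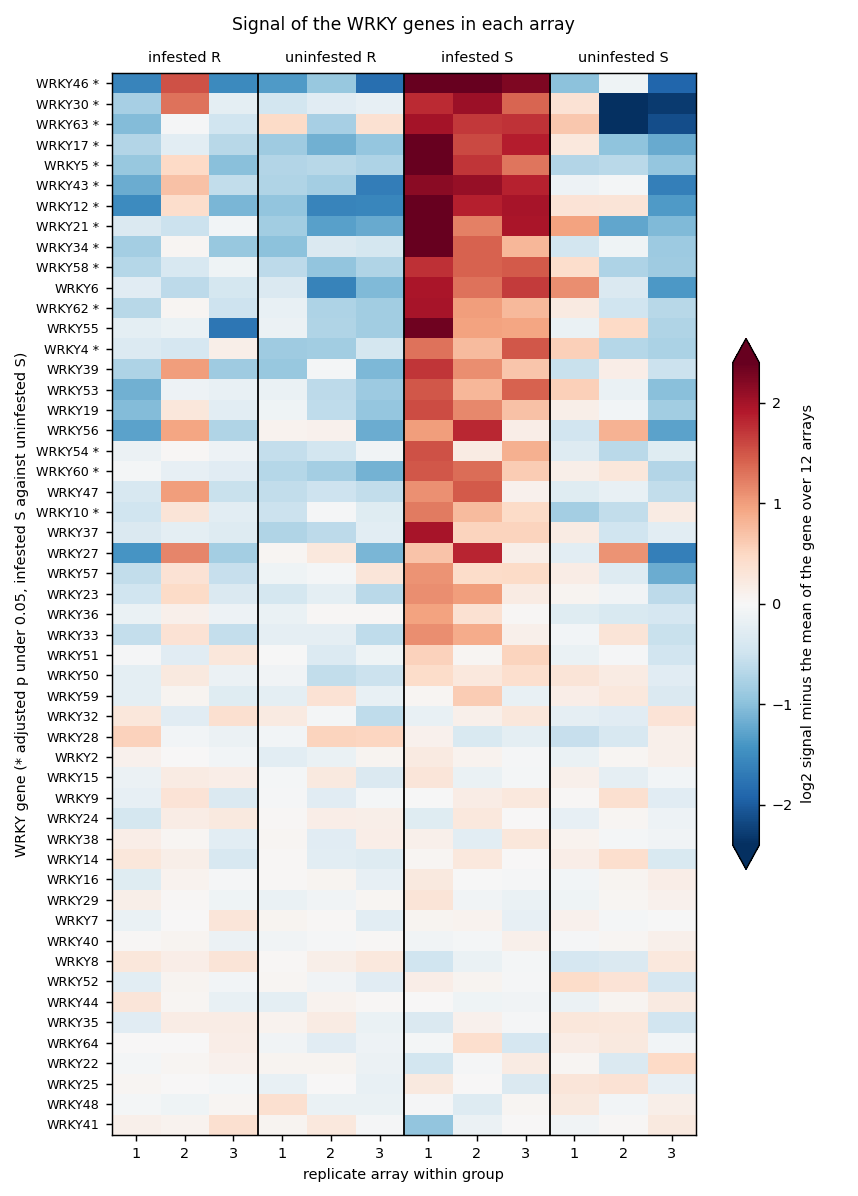
Heat map of the 52 WRKY genes (rows, ordered by the difference between infested and uninfested S plants) over the 12 arrays (columns, by group and replicate number). Color gives the log2 signal minus the mean of the gene over all arrays, and an asterisk marks the 15 genes with adjusted p under 0.05 between infested and uninfested S plants. The upper rows are highest in the 3 infested S arrays, and infested R array 2 is raised in a part of these rows.

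The count of 15 depended on single arrays. Without infested S array 1, 3 genes remained (WRKY5, WRKY17 and WRKY58), while 1.05% of all probe sets rose. That array was above both other infested S arrays by more than 1 for 6 of the 52 genes, against 0.527% of all probe sets. Without uninfested S array 3 the count was 5, against 1.35% of all probe sets, and without uninfested S array 2 it was 8, against 2.05%. WRKY5, WRKY17 and WRKY58 passed whichever of the 12 arrays was left out. When replicates of equal number were treated as blocks, the count was 26 (50%), against 4.34% of all probe sets. The median signal of the 6 photosynthesis genes was 9.48 in infested S plants and 10.24 in uninfested S plants, and the part of this in the WRKY differences was not tested. In leaves taken whole, fewer cells of a type and less RNA per cell cannot be told apart.

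The second comparison asks the same of the resistant line, on which the study counted fewer aphids than on the susceptible line. No WRKY gene passed the test in R plants (0 of 52 higher and 0 lower by limma, as for all probe sets, of which 0% passed in either direction). On the probe sets used, WRKY60 alone was higher at an unadjusted p under 0.05 (1.92% of the family) and 0 genes were lower. Of all probe sets, 1.19% were higher and 0.87% lower at that level. Over all 103 WRKY probe sets, 5 were higher and 0 lower. Probe sets not used for their gene were among these 5, with differences of 0.54 for WRKY32 (unadjusted p = 0.0048) and 0.52 and 0.42 for WRKY48. The used probe sets of these genes had differences of 0.27 and -0.06. The median difference of the family was 0.12, against -0.01 over all probe sets, and no gene differed by 1 or more in either direction. Positive differences were found in 40 of 52 genes (76.9%), against 46.8% of all probe sets. Fewer were positive with infested R array 2 left out, as described below with that array. With all arrays the differences ran from -0.53 for WRKY63 to 0.82 for WRKY46. The upper bounds of the 95% intervals exceeded 1 for 14 genes, so that rises of that size were not excluded for them at this number of arrays.

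WRKY60 had signals of 9.32, 9.16 and 9.10 in infested R plants, against 8.69, 8.55 and 8.23 in uninfested R plants. The groups did not overlap and the difference was 0.70 (SE 0.27, unadjusted p = 0.025, adjusted p = 1). The infested arrays of WRKY4, WRKY17, WRKY21 and WRKY64 also lay above their uninfested arrays, which makes 5 of 52 genes, against 2.77% of all probe sets. WRKY64 was at the control level with and without aphids, and no direction is read from it. WRKY17 had 7.02, 7.47 and 7.06 in infested R plants, against 6.87, 6.57 and 6.78 in uninfested R plants (difference 0.44, 95% interval -0.40 to 1.29). WRKY21 had 6.50, 6.34 and 6.79 in infested R plants, against 6.01, 5.54 and 5.64 in uninfested R plants (difference 0.82, 95% interval -0.23 to 1.87). Neither passed the test. WRKY4 had 9.58, 9.50 and 10.04 in infested R plants, against 9.06, 9.08 and 9.49 in uninfested R plants (difference 0.50). WRKY54 had 8.39, 8.56 and 8.40 in infested R plants, against 7.96, 8.08 and 8.45 in uninfested R plants (difference 0.29). WRKY4 was separated by a narrow margin and WRKY54 overlapped. WRKY62 had 5.76, 6.48 and 5.93 in infested R plants, against 6.25, 5.68 and 5.60 in uninfested R plants (difference 0.21). WRKY34 had 5.64, 6.50 and 5.55 in infested R plants, against 5.47, 6.10 and 6.04 in uninfested R plants (difference 0.03). Both were dim in R plants, with overlapping groups, and the difference of WRKY10 was 0.14. None of these genes passed.

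**Figure D3:**
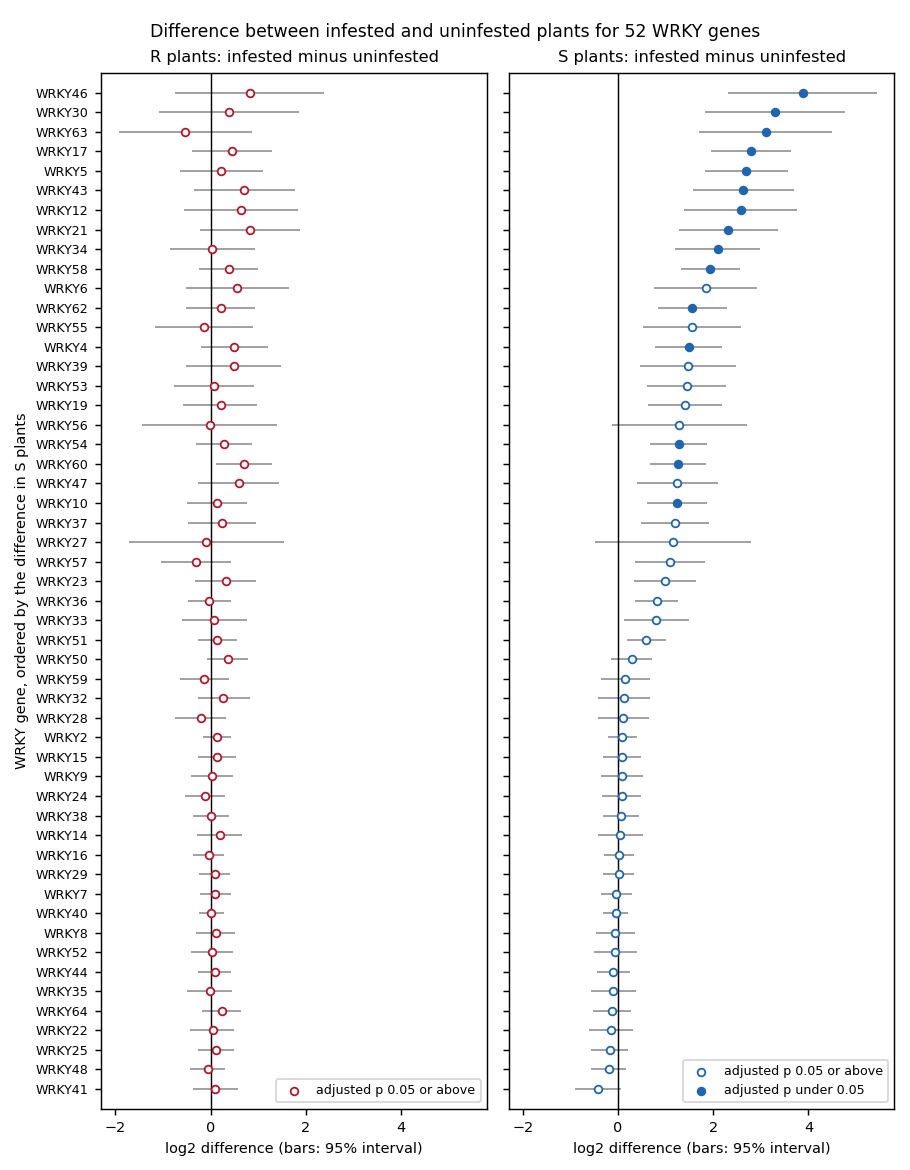
Log2 difference between infested and uninfested plants (horizontal axes) for the 52 WRKY genes (rows) in R plants (left) and S plants (right), with 95% intervals from the limma fit. Filled points have an adjusted p under 0.05, which 15 genes reached in S plants and 0 in R plants. The R differences lie between -0.53 and 0.82, and the S differences between -0.43 and 3.88.

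Array 2 of the infested R plants stood apart from the other two. It was above both by more than 1 for 9 of the 52 genes (WRKY5, WRKY12, WRKY27, WRKY30, WRKY39, WRKY43, WRKY46, WRKY47 and WRKY56), against 1.62% of all probe sets. WRKY46 had signals of 6.39, 9.50 and 6.46 in infested R plants, against 6.63, 7.07 and 6.18 in uninfested R plants. Array 2 was the single high one, and the difference was 0.82 with it and -0.20 without it. WRKY5 had 5.80, 7.19 and 5.70 in infested R plants, against 6.01, 6.05 and 5.97 in uninfested R plants. Its difference was 0.22 with array 2 and -0.26 without it. WRKY43 had 8.83, 10.73 and 9.44 in infested R plants, against 9.30, 9.21 and 8.36 in uninfested R plants (0.71 with array 2 and 0.18 without it). WRKY12 had 7.43, 9.36 and 7.84 in infested R plants, against 7.99, 7.35 and 7.37 in uninfested R plants (0.64 with array 2 and 0.06 without it). WRKY30 had 8.30, 10.39 and 8.86 in infested R plants, against 8.65, 8.83 and 8.90 in uninfested R plants. Its difference was 0.39 with array 2 (95% interval -1.08 to 1.86) and -0.21 without it. Over the 15 genes that rose in S plants, the median difference in R plants was 0.39, with 14 above 0. Without infested R array 2 it was 0.06, with 8 of 15 above 0. Over the other 37 genes the median was 0.09, with 26 above 0, and without that array it was -0.02, with 18 above 0. The labels do not set this array apart from its group.

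WRKY58 and WRKY63 did not follow array 2 in this way. WRKY58 had signals of 10.11, 10.41 and 10.68 in infested R plants, against 10.17, 9.84 and 10.06 in uninfested R plants. Its groups overlapped, and the difference was 0.38 (95% interval -0.25 to 1.00). WRKY63 had 7.65, 8.66 and 8.21 in infested R plants, against 9.15, 7.90 and 9.05 in uninfested R plants, a difference of -0.53 (95% interval -1.93 to 0.87). The second WRKY63 probe set was at the control level in uninfested R plants (mean 4.84) and close to it in infested R plants (mean 5.61), and no direction is read from it.

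The next comparison set infested R against infested S plants. Aphid numbers differed between the lines at harvest, as the study states, so that the line and the aphid load cannot be told apart here, and this comparison shares the infested S arrays with the first. Of the 52 genes, 15 were lower in infested R plants (28.8%) and 0 were higher, against 2.29% and 0.702% of all probe sets. The genes were WRKY4, WRKY5, WRKY6, WRKY12, WRKY17, WRKY19, WRKY21, WRKY34, WRKY43, WRKY46, WRKY53, WRKY55, WRKY58, WRKY60 and WRKY62. The median difference was -0.88, against 0.04 over all probe sets, and in 22 genes every infested R array lay below every infested S array, against 8.36% of all probe sets. WRKY8 and WRKY41 were the 2 genes whose infested R arrays all lay above the infested S arrays (9.55% of all probe sets), with differences of 0.48 and 0.56 that did not pass the test (adjusted p = 0.23 for each). At the cutoffs of the Methods, WRKY5, WRKY17 and WRKY58 were lower, against 0.729% of all probe sets, and with blocks of equal replicate number 11 genes were (21.2%), against 1.65%.

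The differences ran from -3.41 for WRKY46 (10.7-fold, SE 0.72, adjusted p = 0.026) to -1.32 for WRKY60 (2.5-fold, SE 0.27, adjusted p = 0.024). WRKY12 differed by -3.06 (adjusted p = 0.013), WRKY17 by -2.69 (adjusted p = 0.0044), WRKY5 by -2.42 (adjusted p = 0.0085) and WRKY58 by -1.94 (adjusted p = 0.005). WRKY55 had signals of 6.81, 6.88 and 5.31 in infested R plants, against 9.37, 8.01 and 7.98 in infested S plants. The groups did not overlap, array 3 was the low one of the R plants and array 1 the high one of the S plants, and the difference was -2.12 (SE 0.47, adjusted p = 0.033). Without aphids WRKY55 had 6.90, 6.31 and 6.20 in R plants, against 6.89, 7.51 and 6.31 in S plants. WRKY53 had 7.35, 8.38 and 8.32 in infested R plants, against 9.99, 9.29 and 9.92 in infested S plants, a difference of -1.71 (SE 0.38, adjusted p = 0.034). Without aphids WRKY53 had 8.33, 7.87 and 7.63 in R plants, against 9.06, 8.34 and 7.49 in S plants, so that the uninfested lines overlapped in both genes. WRKY30 and WRKY63 missed the threshold, with differences of -1.66 (adjusted p = 0.25) and -2.32 (adjusted p = 0.080, or 0.039 with blocks of equal replicate number). The count of 15 fell to 3 (WRKY5, WRKY17 and WRKY58) without infested S array 1, and to the same 3 genes without infested R array 1 or without infested R array 3, when 0.721%, 0.787% and 0.811% of all probe sets were lower.

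Uninfested plants were compared to look for differences between the lines that were there without aphids. No WRKY gene passed (0 of 52 in either direction by limma, against 0.0239% of all probe sets higher and 0.0505% lower in uninfested R plants). At an unadjusted p under 0.05, WRKY28 was higher and WRKY50 and WRKY60 were lower, against 1.38% and 1.52% of all probe sets. With blocks of equal replicate number 2 genes were higher and 4 lower at this level, against 1.97% and 2.6%. The median difference was -0.10, against 0.01 over all probe sets. WRKY60 had signals of 8.69, 8.55 and 8.23 in uninfested R plants, against 9.50, 9.63 and 8.66 in uninfested S plants. The groups overlapped by the lowest S array, and the difference was -0.77 (SE 0.27, unadjusted p = 0.015, adjusted p = 1). Among the probe sets used, WRKY60 thus had the smallest p in this comparison and in that of infested with uninfested R plants. Both comparisons rest on the same uninfested R arrays. With aphids the R signals of WRKY60, from 9.10 to 9.32, lay within the range of the uninfested S arrays.

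WRKY30 and WRKY63 had the largest positive differences between uninfested plants, and both depended on 1 array. WRKY30 had signals of 8.65, 8.83 and 8.90 in uninfested R plants, against 9.44, 6.43 and 6.80 in uninfested S plants (difference 1.24, 95% interval -0.23 to 2.71). WRKY63 had 9.15, 7.90 and 9.05 in uninfested R plants, against 9.33, 6.27 and 6.56 in uninfested S plants (difference 1.31, 95% interval -0.08 to 2.71). In each gene uninfested S array 1 was above all R arrays and the other two S arrays were below them. Without that array the differences were 2.19 (adjusted p = 0.48) and 2.29 (adjusted p = 0.086). Uninfested S array 1 was above the other uninfested S arrays by more than 1 for 7 genes (WRKY4, WRKY6, WRKY17, WRKY21, WRKY30, WRKY58 and WRKY63), against 0.827% of all probe sets, and the labels do not set it apart. WRKY12 had the largest negative difference, with 7.99, 7.35 and 7.37 in uninfested R plants, against 9.26, 9.25 and 7.57 in uninfested S plants (-1.12, 95% interval -2.32 to 0.08).

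Whether R plants responded differently from S plants was tested as the difference between the 2 responses, that of R minus that of S. Since infested R plants carried fewer aphids than infested S plants, line and aphid load cannot be told apart in this difference either. No WRKY gene passed (0 of 52 in either direction by limma), against 0% of all probe sets higher and 0.00798% lower. Without adjustment, 18 genes (34.6%) were lower and 0 higher at p under 0.05, against 3.82% and 3.1% of all probe sets, and the median over the family was -0.66, against 0.03 over all probe sets. The lowest adjusted p was 0.25, for WRKY5, with a response smaller by 2.47 in R than in S plants (95% interval of the difference -3.70 to -1.23). The estimate was -3.64 for WRKY63 (95% interval -5.61 to -1.66, adjusted p = 0.31), -1.56 for WRKY58 (-2.45 to -0.68, adjusted p = 0.33) and -2.35 for WRKY17 (-3.54 to -1.16, adjusted p = 0.27). For WRKY60 it was -0.55, and its interval, from -1.39 to 0.29, held 0. Single arrays moved this count too. Without uninfested S array 1, WRKY58 (adjusted p = 0.048) and WRKY63 (adjusted p = 0.018) passed, when 0.0266% of all probe sets were lower, and without infested R array 2, WRKY5 (adjusted p = 0.025) and WRKY46 (adjusted p = 0.026) passed, when 0.285% were lower.

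The spread between replicate arrays was wider in the family than over the whole array. The median SD was 0.28 in infested R plants (0.21 over all soybean probe sets), 0.23 in uninfested R plants (0.19), 0.35 in infested S plants (0.22) and 0.38 in uninfested S plants (0.20). For the 15 genes that rose in S plants it was 0.41 in infested R plants, 0.25 in uninfested R plants, 0.62 in infested S plants and 0.75 in uninfested S plants. No test was run on these spreads.

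Of the 26 genes with several probe sets, 11 had at least 1 probe set that rose in S plants, and in 5 of them (WRKY10, WRKY21, WRKY34, WRKY60 and WRKY63) all did. WRKY34 had 4, with rises from 1.57 to 2.10, and WRKY21 had 2, with rises of 2.32 and 2.78. The 2 WRKY21 probe sets are paired by the study with different genes, Glyma.06g147100 and Glyma.04g218700. WRKY19, WRKY33, WRKY39 and WRKY51 rose on a probe set other than the one used. WRKY4 was the gene whose probe sets disagreed in sign with both at an unadjusted p under 0.05. Its brightest probe set had 11.21, 10.67 and 11.39 in infested S plants, against 10.47, 9.23 and 9.14 in uninfested S plants, and rose by 1.48 (SE 0.32, adjusted p = 0.027). A second had 8.56, 9.37 and 9.10 in infested S plants, against 9.44, 9.55 and 9.61 in uninfested S plants, a difference of -0.53 (unadjusted p = 0.022, adjusted p = 0.20), and the other 3 were between -0.08 and 0.17. The call for WRKY4 therefore rests on 1 of 5 probe sets. Of the 6 probe sets shared with a second gene, that of WRKY19 and WRKY62 rose by 1.81 (adjusted p = 0.020) and the others had adjusted p-values of 0.072 or more.

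**Figure D4:**
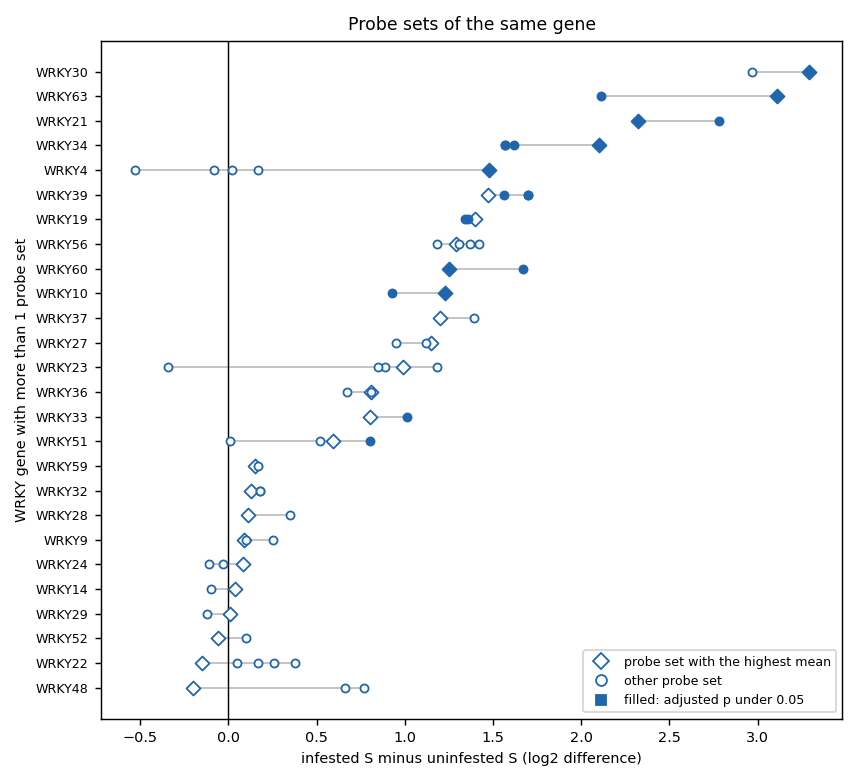
Log2 difference between infested and uninfested S plants (horizontal axis) for every probe set of the 26 WRKY genes that have more than 1 (rows). Diamonds mark the probe set used for the gene, circles the others, and filled symbols an adjusted p under 0.05. The probe sets of WRKY34 lie between 1.57 and 2.10, and those of WRKY4 between -0.53 and 1.48. The circle of WRKY63 is a difference from a mean at the control level.

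All 52 genes were found in RefSeq by gene ID, and 5 pairs of WRKY genes had at most 20 protein-coding genes between them, among them WRKY30 and WRKY63, which both rose in S plants. WRKY10 rose by 1.23 in S plants and WRKY64, with 2 genes between, had a difference of -0.13 at the control level. WRKY6 and WRKY40, with 6 genes between, differed by 1.84 (adjusted p = 0.068) and -0.05. WRKY41 and WRKY51, with 7 between, differed by -0.43 and 0.59, and neither passed. WRKY9 and WRKY32, with 19 between, differed by 0.09 and 0.13. Among the 8 genes with a paired soybean ID, those of WRKY21, WRKY43 and WRKY63 name another chromosome than RefSeq does, and which copy these probe sets report on was not resolved here.

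Genes of the signaling around WRKY factors were looked at in the same way. In a list of 11 (MAP kinases, a MAP kinase kinase, and the immune regulators EDS1, PAD4, NDR1, RIN4, RAR1 and HSP90), 2 were higher and 0 lower in infested than in uninfested S plants, against 2.51% and 0.902% of all probe sets, with a median difference of 0.33, against -0.04. NDR1b, related to an Arabidopsis membrane protein needed by some resistance proteins, had signals of 10.19, 9.62 and 9.06 in infested S plants, against 7.50, 7.75 and 6.53 in uninfested S plants. The groups did not overlap, and the difference was 2.36 (SE 0.35, adjusted p = 0.0036). MPK4B, a MAP kinase, rose by 0.69 (SE 0.17, adjusted p = 0.044), while MAPK2 had a difference of -0.06 and MAPKK2 one of 0.33, neither of which passed. The list was drawn by gene symbol and does not hold MPK3 or SARD1, which the study called induced in infested S plants. NDR1b was lower by 1.84 in infested R than in infested S plants (log2 difference -1.84, adjusted p = 0.017), the single gene of the list to pass there without blocks (2.29% of all probe sets were lower). With blocks of equal replicate number MPK4B (log2 difference -0.59, adjusted p = 0.031, or 0.087 without blocks) and EDS1-2 (-0.74, adjusted p = 0.030, or 0.12 without blocks) passed as well. In that fit 4.46% of all probe sets were lower. None of the 11 passed between infested and uninfested R plants (NDR1b 0.95, unadjusted p = 0.020, adjusted p = 1), between uninfested lines, or in the difference between the responses.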

How the data were processed

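Expression was measured on 12 Affymetrix Soybean Genome Arrays, 3 per group, grouped by the labels. The Methods state that the authors normalized with GCRMA, and the submitters' processing notes name RMA, GCRMA and limma without versions. The deposited log2 values were, however, in 99.6% of cases log2-transformed integers (within a relative tolerance of 1e-06). The array medians ran from 6.86 to 7.70, so that the arrays were not scaled to each other. Whether the values had been background corrected was not tested. Values were quantile normalized over 37593 soybean probe sets, leaving out 60 control probe sets. The median of those 60, normalized with the rest, gave the control level. limma 3.58.1 in R 4.3.3 was fitted with 1 mean per group over 12 arrays and empirical Bayes moderation. p-values were adjusted by the Benjamini-Hochberg method over all soybean probe sets, with a threshold of 0.05. Intervals are at 95%. The labels do not tie arrays to separate blocks, so p-values measure the spread between pooled samples. The fit was checked on simulated data with independent noise between arrays and changes set in brighter probe sets only. That check does not cover dim genes or arrays that move many genes together.

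The cutoffs of the Methods (unadjusted p up to 0.0001, Storey q up to 0.04 and a fold of at least 2) and other scalings, filters, probe set rules and array omissions were run as alternatives. Replicate numbers were checked as pairs through correlations of deviations from the group means of same-numbered arrays, which were 0.13 to 0.36 in S plants, 0.29 to 0.48 between uninfested and 0.17 to 0.42 between infested lines, and -0.12 to 0.49 in R plants, where the pairing is not shown. Arrays of unlike number reached 0.20 in S plants and 0.39 in R plants, within the range of the same-numbered arrays. Between uninfested and between infested lines they reached 0.03 and 0.05. The pairing is therefore not clearly shown in S plants either. The Methods describe a block design for the placement of plants, with distance to the back wall of the chamber as a factor. They do not say that replicate numbers mark these blocks, so the pairing is judged from the data.

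Members, gene lists and comparisons were chosen with earlier results of these data known. Values in every array are given for the 12 genes with the smallest p among those passing in a comparison, for genes that the study gives an ID for, for the highest and lowest mean, for the smallest p in R plants and between uninfested lines, and for genes whose probe sets disagree. WRKY10, WRKY27 and WRKY41 were added after their values were seen. Gene names come from the platform annotation, and RefSeq (Glycine_max_v4.0) was used for neighbors. Protein groups and promoter motifs were planned and were not analysed here.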

Additional observations from a re-analysis of the deposited data

How the results depend on the processing

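In S plants 15 WRKY genes rose. The count was 6 with the arrays compared alone and 26 with the replicate block (all 15 among them). It was 3 with the study's cutoffs on the values used here, and it ran from 3 to 18 with single arrays left out. Under median centering (18), the values as deposited (11), normexp (14), the level filter (11), trend and robust moderation (15) and the mean of all probe sets (17), it stayed within 1.5 times. Between infested lines the 15 lower genes became 3 with the study's cutoffs and 3 to 17 with single arrays left out. They became 23 (2.85% of all probe sets), the 15 included, without uninfested S replicate 1 and infested R replicate 2, an omission chosen after seeing the data. That omission also gave 1 gene between uninfested lines (WRKY30, 2.19, adjusted p = 0.010, against 0.0239% of all probe sets higher) and 4 in the difference between responses (WRKY17, WRKY30, WRKY58 and WRKY63, adjusted p from 0.0029 to 0.044, against 0.189% of all probe sets lower), where single omissions gave 0 to 2. The pairing behind the replicate block is not shown in R plants and not clearly shown in S plants. With this block, the genes meeting the study's cutoffs became 8 in S plants and 11 between infested lines, against 3 each. Those under an unadjusted p of 0.05 between uninfested lines became 2 higher and 4 lower, against 1 and 2. In R plants 2 were higher at that level (2.43% of all probe sets), against 1. In the list of 11 signaling genes, 3 were lower between infested lines with the block (4.46% of all probe sets), against 1 without it (2.29%). The causes of these changes were not tested. No WRKY gene passed in R plants under any alternative run. Of the gene-level values recomputed for 20 named genes, 139 lost and 37 gained significance, and 1874 kept their side of the threshold. Of those that passed in the main fit or in the alternative, 0 changed direction. Differences that passed in neither could change sign, as that of WRKY46 in R plants did without infested R array 2. In the values as deposited, the median difference of all probe sets in S plants was -0.17, against -0.04 after quantile normalization. The number of arrays limits the precision.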
